A study of Mus musculus with 6 samples.

Results

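The genes described here encode the steps by which a cell takes up glucose, breaks it down by glycolysis, interconverts pyruvate and lactate, moves lactate and pyruvate across the membrane and runs the pentose phosphate pathway. They are 34 mouse genes chosen by symbol, and they were found as 35 of the 60193 genes and loci of the deposited FPKM table, 53700 of which carry Ensembl identifiers, because Aldoa is listed under 2 identifiers. FPKM is the number of sequenced fragments of a gene relative to the length of its transcript and to the size of the library. The study measured RNA in oocytes arrested at metaphase of the second meiotic division (MII) and compared maturation in vitro (IVM) with maturation in vivo (IVO). All mice were of the ICR strain, of advanced reproductive age (42 to 45 weeks). Each group had 3 samples, and each sample pooled 20 oocytes from 3 mice, so the spread between samples is that between pools of animals. All mice were given 5 IU of PMSG, a gonadotropin that makes follicles grow. For IVM, ovaries were taken 46 h later, oocytes at the germinal vesicle stage were stripped of their cumulus cells, and they matured without those cells in M16 medium for 12 h. For IVO, the mice instead received 5 IU of hCG, which triggers ovulation, at 46 h, and ovulated oocytes were recovered from the oviduct 14 h after it and freed of cumulus cells with hyaluronidase. The groups therefore differed in hormone exposure, surrounding cells, medium and handling together, and these cannot be told apart.

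Glycolysis splits glucose into pyruvate with a small yield of ATP, and lactate dehydrogenase interconverts pyruvate and lactate while exchanging the reduced and oxidised forms of NAD. The pentose phosphate pathway branches off after the first glycolytic step and yields NADPH, which serves glutathione reduction, and ribose for nucleotides. Mouse oocytes are known for a low capacity to use glucose themselves: the surrounding cumulus cells break it down and pass pyruvate to the oocyte, which oxidises it in mitochondria. Monocarboxylate transporters carry pyruvate and lactate together with a proton, and several of them need the membrane glycoprotein basigin to reach the cell surface.

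Sequencing depth, inferred from the table, lay between 16425000 and 19425000 fragments for IVM and between 17825000 and 18100000 for IVO, with a mean fragment of 206 to 215 bases (IVM) or 249 to 262 bases (IVO). For a transcript of 1000 bases, 3 fragments were worth 0.195 to 0.232 FPKM, a floor that covers counting error only. IVM libraries summed to 1826738 to 2111776 FPKM, and IVO libraries to 1560813 to 1643682. The median log2 fold change of all tested genes, IVO minus IVM on the log2(FPKM + 1) scale, was −0.30, and it was −0.99 for the 4077 tested genes of up to 500 bases. Each result was therefore also computed after median-ratio scaling, which brings the median to −0.04, and after subtraction of the trend with gene length within each library. All 12 oocyte markers on a fixed list were expressed, with a summed FPKM of 22000 to 28110 in IVM and 21400 to 23660 in IVO that was mostly Oosp1 and Dppa3. The sum hides differences among them, since the zona pellucida genes Zp1, Zp2 and Zp3 had log2FC of −2.43, −3.69 and −3.13 (adjusted p = 0.00212, 0.00119 and 0.00202 in limma). Of 16 cumulus or granulosa cell markers, 11 were under 1 FPKM in every library, with Amh at 0 in all 6. The summed FPKM of the list, 71.2 to 91.9 in IVM and 50.4 to 77.2 in IVO, was mostly Nr5a2, Cyp19a1, Fshr and Amhr2. Nr5a2 had 28.32 to 39.19 FPKM in IVM and 13.50 to 17.81 in IVO (limma log2FC −1.04, adjusted p = 0.0139). The log2FC was 0.18 for Cyp19a1, 0.16 for Fshr, 0.22 for Kitl and −0.70 for Amhr2 (adjusted p = 0.546, 0.772, 0.586 and 0.551). Has2, Ptx3 and Tnfaip6, at most 0.49 FPKM, stood higher in every IVO sample than in any IVM sample. They were too low to be tested, and 9.62% of all tested genes lay higher in this way. Ptx3, at most 0.17 FPKM, lay under the floor quoted for 1000 bases. Inha, in the same low range, had 0.86, 0.16 and 0.69 FPKM in IVM and 0.14, 0.41 and 0.09 in IVO. Of 4 blood or vessel markers, the globin Hbb-bs was at 2.33 and 2.04 FPKM in IVO2 and IVO3 and at 0 elsewhere, Hba-a1 was at 0.96 and 1.45 in the same 2 and at most 0.15 elsewhere, and the list summed to 3.83 to 5.63 FPKM in IVM and 4.10 to 8.56 in IVO. Whether traces of other cells take part in any value below was not tested. In pooled oocytes, less RNA per cell and fewer intact cells cannot be told apart.

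Of the 34 genes, 27 had a mean of at least 1 FPKM over the 6 samples and were tested with limma among 18818 genes. Of these 27, 4 stood lower in IVO oocytes by a log2FC of at least 1 in size with a Benjamini-Hochberg adjusted p under 0.05, and 0 stood higher. The 4 were the lactate dehydrogenase Ldhb, the pyruvate kinase Pkm, the glucose transporter Slc2a3 and the lactate transporter Slc16a3. Over all tested genes, 17.9% were called lower and 0.606% higher by the same rule. At any fold, 4 genes had an adjusted p under 0.05 in the lower direction and 0 in the higher, beside 21.5% and 1.87% of all tested genes. By limma's unadjusted p under 0.05, 8 were lower and 1, Slc2a1, was higher, beside 31.4% and 5.56% of all tested genes. The median log2FC of the 27 genes was −0.08, with a range from −2.17 to 1.04, and 17 values were negative and 10 positive.

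The values of the IVM and IVO samples did not overlap in 12 of the 27 genes. They lay lower in IVO in 8 (Slc2a3, Gpi1, Aldoa, Eno1, Pkm, Ldhb, Slc16a3 and Tkt) and higher in IVO in 4 (Slc2a1, Pgk1, Pfkfb2 and Rpe), beside 32.6% and 9.62% of all tested genes. Gpi1, Pgk1 and Rpe are named here after their values were seen. After median-ratio scaling, Ldhb, Pkm and Slc2a3 were called lower and Slc2a1 higher, beside 11.2% and 2.09% of all tested genes. At any fold, 4 genes then passed lower and 2 higher, where the background was 13.0% and 7.19%. With the length trend removed, 4 passed lower and 3 higher at any fold, beside 8.62% and 10.9%. The median log2FC of the 27 genes was 0.17 after median-ratio scaling, where that of all genes was −0.04, and 0.23 with the length trend removed, where that of all genes was 0.16.

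**Figure D1:**
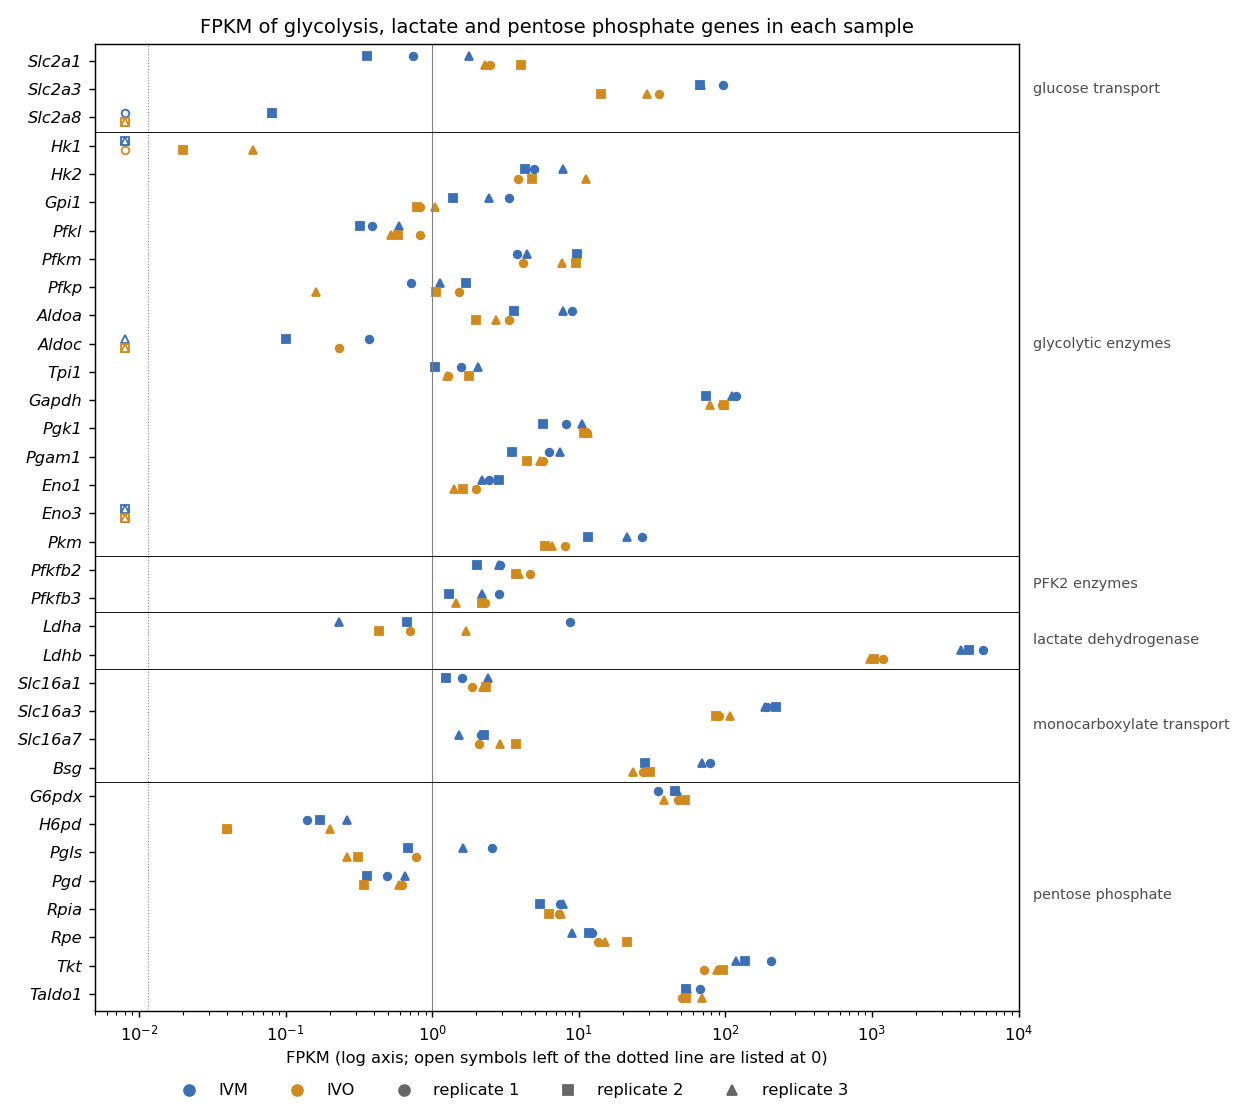
FPKM of the 34 genes (Aldoa by its expressed identifier) in each sample on a logarithmic axis, grouped by step, with IVM in blue and IVO in orange, replicates 1 to 3 as circles, squares and triangles, and open symbols at the left for values listed at 0; the solid line marks 1 FPKM. Ldhb stands highest, at 4068.66 to 5734.42 FPKM in IVM and 964.20 to 1189.49 in IVO. Among tested genes, the groups do not overlap for 8 lower in IVO, Ldhb, Slc16a3, Pkm and Slc2a3 among them, and for 4 higher.

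**Figure D2:**
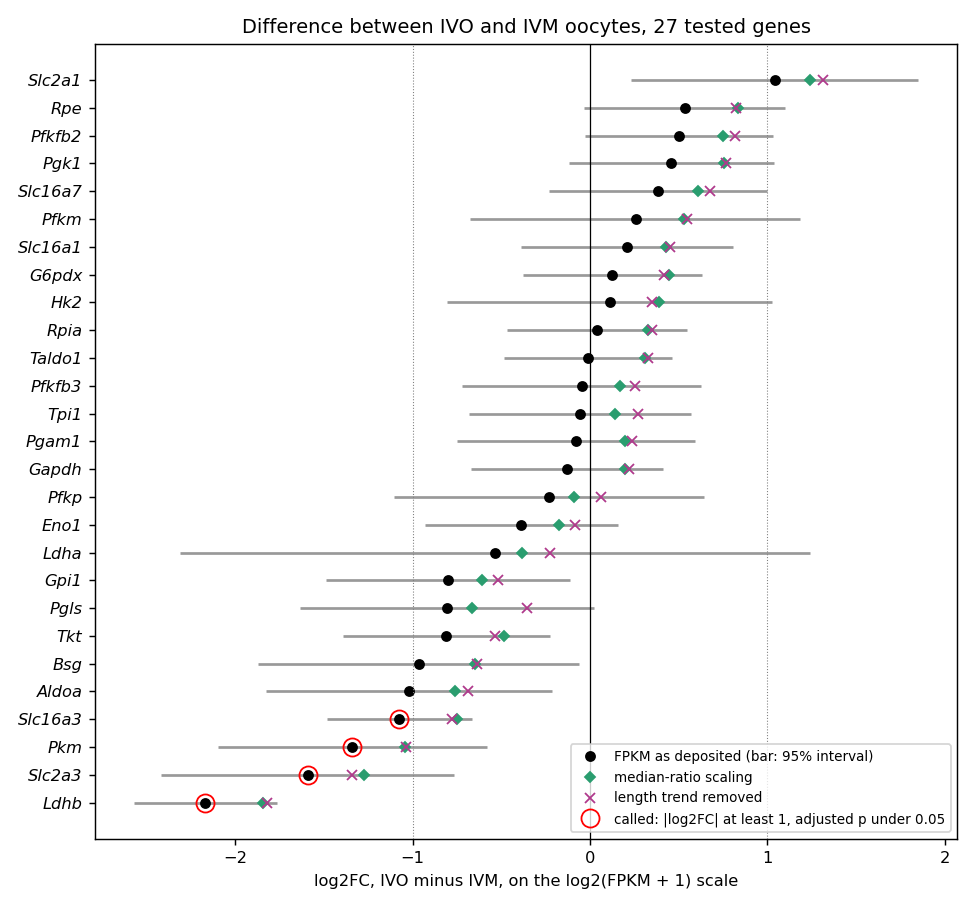
Log2 fold change of each of the 27 tested genes (IVO minus IVM, on log2(FPKM + 1)), with black points and 95% confidence intervals for FPKM as deposited, diamonds for median-ratio scaling, crosses for the length trend removed and red rings for called genes. Ldhb lies at −2.17, −1.84 and −1.82 on the 3 scales, and Slc2a1 at 1.04, 1.24 and 1.31.

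Lactate dehydrogenase RNA was almost wholly that of Ldhb (ENSMUSG00000030246), which encodes the heart-type subunit. The gene lies on chromosome 6 of GRCm39 from 142435672 to 142454586 on the minus strand. Ldhb stood at 5734.42, 4616.19 and 4068.66 FPKM in IVM1, IVM2 and IVM3. In IVO1, IVO2 and IVO3 it stood at 1189.49, 1031.24 and 964.20 FPKM. Every IVM sample lay above every IVO sample, and the mean FPKM was 4.53 times as high in IVM. The log2FC was −2.17 (SE 0.17, 95% interval −2.57 to −1.77, adjusted p = 0.000905). Ldhb was called in each of the 6 fits that left out 1 sample, with log2FC between −2.28 and −2.03. It was the one called gene of the 27 of which this held. Ordered by FPKM among Ensembl genes, Ldhb ranked 28, 45 and 43 in IVM and 171, 207 and 245 in IVO. Of all FPKM it took 0.274%, 0.219% and 0.223% in IVM and 0.0762%, 0.0661% and 0.0587% in IVO.

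Ldha, the muscle-type subunit, had low and uneven values, which were 8.72, 0.67 and 0.23 FPKM in the IVM samples. In the IVO samples it had 0.70, 0.43 and 1.69 FPKM. IVM1 stood apart, the other values overlapped between groups, and the log2FC of −0.54 (SE 0.76, adjusted p = 0.653) became 0.38 without IVM1. As a share of Ldha plus Ldhb within a sample, a measure that library scaling cannot move, Ldha made up 0.152%, 0.0145% and 0.00565% in IVM. The same share was 0.0588%, 0.0417% and 0.175% in IVO, with an exact permutation p of 0.5.

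A processed pseudogene of Ldhb on chromosome 19 (21914744 to 21915745, plus strand), Ldhb-ps, is listed separately. Over the coding bases the 2 sequences are 98.0% identical, with 20 mismatches in 1002 aligned bases, and 0 of the 853 windows of 150 bases are shared without a mismatch. The stretch of 90 coding bases with the most mismatches is shown from the GRCm39 transcripts of GENCODE M39, 5′ to 3′, positions 853 to 942 of the coding sequence, with the mismatched bases in capitals.
Ldhb: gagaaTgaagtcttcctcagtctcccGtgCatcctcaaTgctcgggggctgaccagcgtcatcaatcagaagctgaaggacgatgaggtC
Ldhb-ps: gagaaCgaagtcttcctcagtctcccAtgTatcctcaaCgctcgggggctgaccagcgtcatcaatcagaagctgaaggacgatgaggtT
In IVM, Ldhb-ps had 578.95, 414.96 and 464.25 FPKM. Its IVO values were 90.98, 102.00 and 99.19 FPKM, a log2FC of −2.30 (SE 0.18, adjusted p = 0.000905). Its FPKM was 10.1%, 8.99% and 11.4% of that of Ldhb in IVM and 7.65%, 9.89% and 10.3% in IVO, and these percentages overlapped between groups. How far the authors' counting divides reads between the gene and its copy is not known from FPKM, so the split between them is uncertain. The sum of both stood lower in every IVO sample.

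Pyruvate kinase Pkm (ENSMUSG00000032294), which makes pyruvate and ATP in the last step of glycolysis, lies on chromosome 9 from 59563364 to 59586663 on the plus strand. It had 26.86, 11.49 and 21.18 FPKM in the IVM samples. In the IVO samples it had 8.10, 5.87 and 6.60 FPKM. The groups did not overlap, and the log2FC was −1.34 (SE 0.32, adjusted p = 0.0248). The call was kept without IVM2 and without IVO1. It was lost without IVM1 (adjusted p = 0.0823), IVM3 (0.0838), IVO2 (0.0763) or IVO3 (0.0608), with the FPKM scaled to the same sum (0.0716), under quantile normalization (0.0803) and with no filter on low values (0.0561). After median-ratio scaling the log2FC was −1.04 (adjusted p = 0.0485).

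A processed pseudogene related to Pkm, Gm5371, lies elsewhere on chromosome 9 (97091097 to 97092933, minus strand). Its transcript is 84.5% identical to the Pkm coding sequence, with 239 mismatches in 1544 aligned bases, and 90 bases of each are shown with the mismatches in capitals (Pkm coding positions 1177 to 1266, Gm5371 positions 1178 to 1267).
Pkm: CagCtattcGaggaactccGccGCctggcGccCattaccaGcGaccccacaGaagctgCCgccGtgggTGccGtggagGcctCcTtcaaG
Gm5371: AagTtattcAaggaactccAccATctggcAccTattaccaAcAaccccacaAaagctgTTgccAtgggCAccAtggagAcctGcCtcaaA
These bases hold 21 mismatches, against 5 between Ldhb and its copy. In IVM, Gm5371 had 43.45, 43.25 and 38.02 FPKM. The IVO samples had 3.34, 1.13 and 3.33 FPKM, a log2FC of −3.64 (SE 0.31, adjusted p = 0.00112). Gm5371 thus stood above Pkm in each IVM sample (162%, 376% and 180% of its FPKM) and below it in each IVO sample (41.2%, 19.3% and 50.5%).

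**Figure D3:**
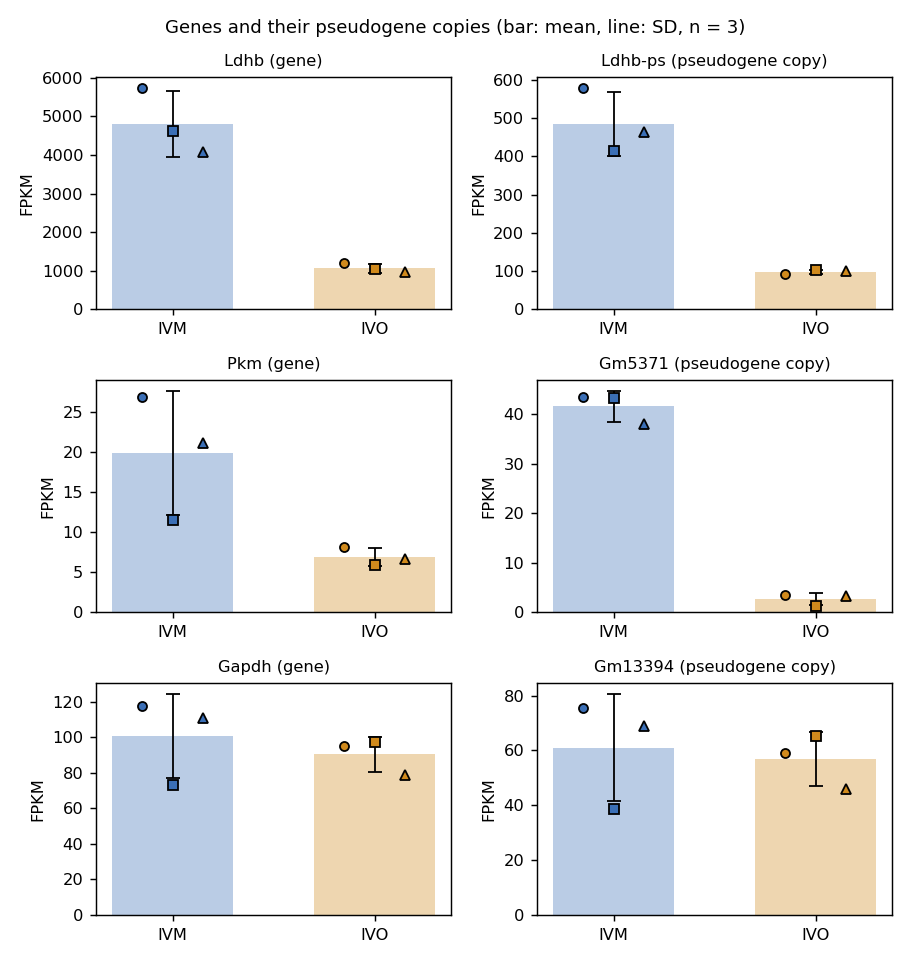
FPKM of Ldhb, Pkm and Gapdh (left) and of a listed copy of each, Ldhb-ps, Gm5371 and Gm13394 (right), with bars for the mean, lines for the SD (n = 3) and circles, squares and triangles for replicates 1 to 3; each panel has its own linear axis from 0. Ldhb-ps follows Ldhb at 7.65% to 11.4% of its FPKM, Gm5371 lies above Pkm in IVM and below it in IVO, and Gm13394 has 52.8% to 67.0% of the FPKM of Gapdh.

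Gapdh (ENSMUSG00000057666) is the glycolytic dehydrogenase often used as a reference gene. Among the listed enzymes from hexokinase to pyruvate kinase its RNA was the most abundant, with 117.46, 73.47 and 111.19 FPKM in IVM. In IVO it had 95.26, 97.29 and 79.02 FPKM. The groups overlapped, and the log2FC was −0.13 (SE 0.23, adjusted p = 0.727) as deposited and 0.19 after median-ratio scaling. The mouse genome holds many processed copies of Gapdh, and 22 genes annotated to the same KEGG ortholog had a mean of at least 1 FPKM. One of them, Gm13394 on chromosome 2 (28823622 to 28824621, minus strand), differs from the Gapdh coding sequence by 1 mismatch in 1000 aligned bases. The 90 bases that hold it are shown with that base in capitals (positions 257 to 346 of each).
Gapdh: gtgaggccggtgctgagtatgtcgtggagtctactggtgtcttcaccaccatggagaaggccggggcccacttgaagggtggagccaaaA
Gm13394: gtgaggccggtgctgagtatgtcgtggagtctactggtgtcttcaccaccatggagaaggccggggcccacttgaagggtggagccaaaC
Of its 851 windows of 150 bases, 701 (82.4%) occur unchanged in Gapdh, so the values of both are uncertain. Gm13394 had 75.48, 38.79 and 68.85 FPKM in IVM. Its IVO values were 59.24, 65.14 and 46.02 FPKM, a log2FC of −0.06 (adjusted p = 0.906). With all genes annotated to that KEGG ortholog added, Gapdh reached 433.6, 352.7 and 392.8 FPKM in IVM. In IVO the sums were 322.2, 320.7 and 277.9 FPKM, and the groups did not overlap. The added genes are mostly processed copies but include Zfp738, a protein-coding gene with 1.52 to 14.86 FPKM. Gapdh plus Gm13394 alone gave 192.9, 112.3 and 180.0 FPKM in IVM and 154.5, 162.4 and 125.0 FPKM in IVO, which overlapped, as Gapdh did. Another copy in the larger sum, Gm4804, had 99.63, 116.60 and 82.06 FPKM in IVM and 48.13, 48.45 and 54.03 FPKM in IVO, and 0 of its 850 windows occur unchanged in Gapdh.

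Glucose enters cells through facilitative transporters. Slc2a3 (GLUT3, ENSMUSG00000003153, chromosome 6 from 122704768 to 122778599, minus strand) made up most of the RNA of the 3 listed here, with 96.09, 66.78 and 68.53 FPKM in IVM. The IVO samples had 35.42, 14.13 and 29.27 FPKM. The groups did not overlap, IVO2 was the lowest, and the log2FC was −1.59 (SE 0.35, adjusted p = 0.0185). The call held without each single IVO sample and was lost without IVM1 (adjusted p = 0.0730), IVM2 (0.0540) or IVM3 (0.0545) and under quantile normalization (0.0532). Slc2a3 remained called after median-ratio scaling, with a log2FC of −1.28 (adjusted p = 0.0438).

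Slc2a1 (GLUT1), the widely expressed transporter, showed the opposite order at a much lower level. It had 0.74, 0.36 and 1.78 FPKM in IVM. In IVO it had 2.47, 4.01 and 2.29 FPKM. All IVO values lay above all IVM values, and the log2FC was 1.04 (SE 0.34, 95% interval 0.23 to 1.85, adjusted p = 0.0687), which missed the threshold as deposited. It passed after median-ratio scaling (1.24, adjusted p = 0.0404), with the length trend removed (1.31, 0.0308) and, as deposited, without IVM3 (1.33, 0.0384). Slc2a1 made up 0.764%, 0.536% and 2.53% of the summed FPKM of these 3 transporters in IVM and 6.52%, 22.1% and 7.26% in IVO. The exact permutation p of this share was 0.1, the smallest that 3 samples against 3 allow, and 0.267 after Benjamini-Hochberg adjustment over 8 families. With 8 further members of the Slc2a family added, Slc2a10 at 7.31 to 18.95 FPKM among them, the share was 0.448% to 1.97% in IVM and 4.62% to 14.6% in IVO. Slc2a8, the third transporter, was listed at 0.08 FPKM or less in every library.

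Hk2, which traps glucose inside the cell by phosphorylation, far exceeded Hk1, with 4.92, 4.26 and 7.78 FPKM in IVM. Its IVO values were 3.87, 4.82 and 11.13 FPKM, and the groups overlapped (log2FC 0.11, SE 0.39, adjusted p = 0.870). Hk1 was listed at 0.06 FPKM or less. Of the phosphofructokinases, which commit sugar to glycolysis, the muscle form Pfkm led with 3.78, 9.64 and 4.40 FPKM in IVM. The IVO samples had 4.17, 9.50 and 7.61 FPKM (log2FC 0.26, adjusted p = 0.685). The platelet form Pfkp had 0.71, 1.69 and 1.12 FPKM in IVM and 1.53, 1.06 and 0.16 in IVO (log2FC −0.23, adjusted p = 0.698). The liver form Pfkl, with 0.32 to 0.83 FPKM, was not tested. Pfkm led the 3 forms in every library.

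Aldoa, the aldolase that splits the sugar bisphosphate, had 8.95, 3.59 and 7.84 FPKM in IVM. In IVO it had 3.36, 1.98 and 2.73 FPKM. Its groups did not overlap, but the lowest IVM sample lay close to the highest IVO sample, and the log2FC of −1.02 (SE 0.34) missed the threshold at an adjusted p of 0.0721. Without IVM2 the log2FC was −1.36 (adjusted p = 0.0270). The second identifier for Aldoa was at 0 in all libraries, and Aldoc did not exceed 0.37 FPKM. Other genes annotated to the KEGG ortholog of Aldoa summed to more than Aldoa in every library. Their sum was 17.17 to 18.1 FPKM in IVM and 12.61 to 16.48 in IVO. It was mostly the processed pseudogene Gm13682, with a limma log2FC of −0.20 (adjusted p = 0.541). How reads divide between Aldoa and these copies is not known from FPKM, so the values of Aldoa are uncertain. Enolase Eno1 had 2.44, 2.85 and 2.17 FPKM in IVM and 1.99, 1.61 and 1.40 FPKM in IVO (log2FC −0.39, adjusted p = 0.272), and the muscle enolase Eno3 was listed at 0 in all 6 libraries.

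The other glycolytic enzymes ranged from 0.79 to 11.46 FPKM. Gpi1, which isomerises glucose phosphate, had the largest negative log2FC among them (−0.80, SE 0.29, adjusted p = 0.0907), and Pgk1, the first step that makes ATP, the largest positive one (0.46, SE 0.25, adjusted p = 0.226). With the length trend removed Pgk1 reached 0.77 (adjusted p = 0.0474). Triose phosphate isomerase Tpi1 (log2FC −0.06, adjusted p = 0.903) and the mutase Pgam1 (−0.08, 0.873) had values near 0. Of the 11 tested enzymes from hexokinase to pyruvate kinase, 1 was called lower and 0 higher, with 3 lower and 0 higher at limma's unadjusted p under 0.05. The shares of all tested genes were 17.9% and 0.606% for the call and 31.4% and 5.56% for the unadjusted p.

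The bifunctional enzymes Pfkfb2 and Pfkfb3 set the level of the sugar bisphosphate that activates phosphofructokinase. Pfkfb2 had 2.91, 2.03 and 2.87 FPKM in IVM. Its IVO values were 4.66, 3.72 and 3.88 FPKM. These values did not overlap, but the log2FC of 0.50 (SE 0.23) had an adjusted p of 0.154. It was 0.75 (adjusted p = 0.0440) after median-ratio scaling and 0.82 (0.0320) with the length trend removed. Pfkfb3 had 2.84, 1.29 and 2.19 FPKM in IVM and 2.29, 2.17 and 1.44 FPKM in IVO (log2FC −0.05, adjusted p = 0.927). Pfkfb2 made up 50.6%, 61.1% and 56.7% of the pair in IVM and 67.1%, 63.2% and 72.9% in IVO (exact permutation p = 0.1, adjusted 0.267). The pair is not the whole family: with Pfkfb1 (4.61 to 8.23 FPKM) and Pfkfb4 added, Pfkfb2 made up 7.11%, 4.35% and 8.04% in IVM and 30.1%, 15.9% and 23.4% in IVO.

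**Figure D4:**
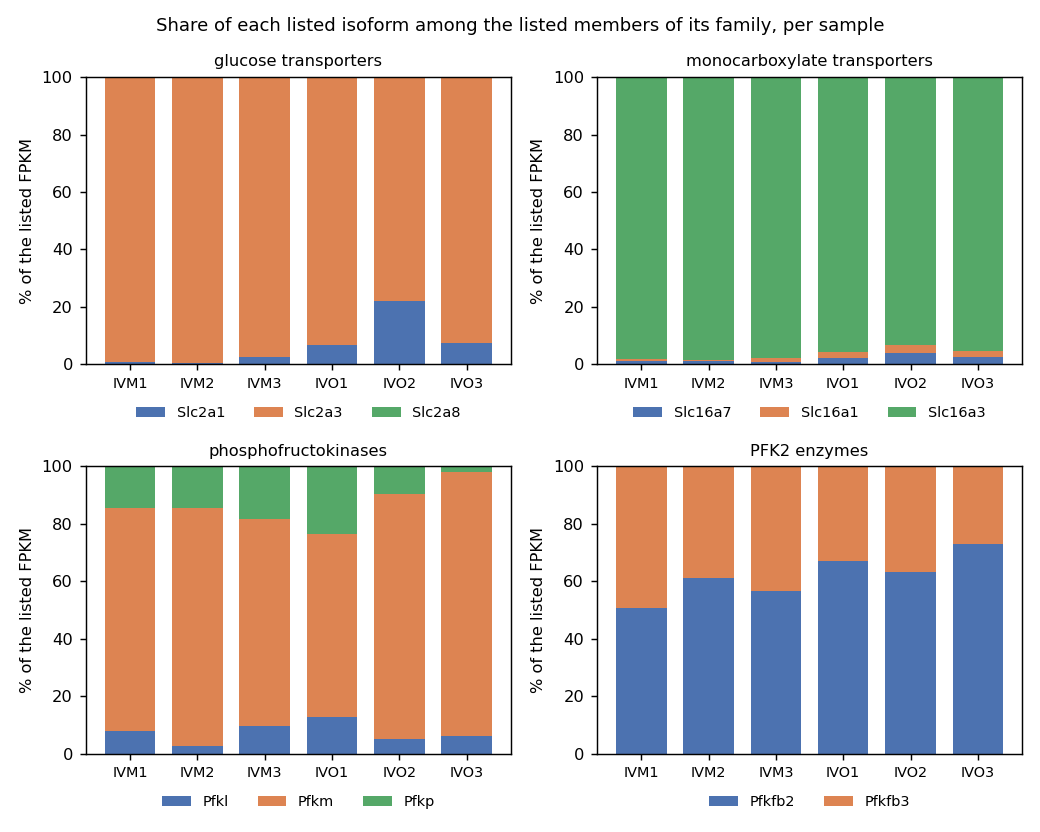
Share of each gene in the summed FPKM of the listed members of its family (percent, stacked bars; other relatives such as Pfkfb4 and Slc2a10 are not included), 1 bar per sample, for the glucose transporters, monocarboxylate transporters, phosphofructokinases and PFK2 enzymes. The share of Slc2a1 is 0.536% to 2.53% in IVM and 6.52% to 22.1% in IVO, that of Slc16a7 0.793% to 1.10% and 2.22% to 4.05%, and that of Pfkfb2 50.6% to 61.1% and 63.2% to 72.9%. That of Slc16a1 is 0.551% to 1.25% in IVM and 1.97% to 2.50% in IVO.

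Slc16a3 (MCT4, ENSMUSG00000025161, chromosome 11 from 120838846 to 120851694, plus strand) is the monocarboxylate transporter known for lactate export. It had 191.59, 221.69 and 186.44 FPKM in IVM. The IVO samples had 89.96, 86.36 and 107.19 FPKM. The groups were far apart relative to their spread, and the mean FPKM was 2.12 times as high in IVM (log2FC −1.08, SE 0.17, adjusted p = 0.00642). The adjusted p stayed under 0.05 after median-ratio scaling (log2FC −0.75, 0.0400) and with the length trend removed (−0.78, 0.0365), where the fold fell short of the threshold of 1. The same happened by a narrow margin without IVM2 (−0.999, adjusted p = 0.0218), and the call held in the 5 other fits that left out 1 sample.

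Slc16a1 (MCT1), the widely expressed transporter, had 1.60, 1.24 and 2.38 FPKM in IVM and 1.86, 2.31 and 2.21 FPKM in IVO (log2FC 0.21, adjusted p = 0.60). Slc16a7 (MCT2), which has a high affinity for pyruvate, had 2.14, 2.25 and 1.51 FPKM in IVM and 2.08, 3.74 and 2.88 FPKM in IVO (log2FC 0.38, adjusted p = 0.340). The levels of Slc16a1 and Slc16a7 overlapped with each other in both groups. Among these 3 transporters, the Slc16a7 share was 0.793% to 1.10% in IVM and 2.22% to 4.05% in IVO (exact permutation p = 0.1, adjusted 0.267). The Slc16a1 share also lay higher in IVO, at 0.551% to 1.25% in IVM and 1.97% to 2.50% in IVO. Slc16a3 made up at least 93.5% in every library. Basigin (Bsg), the partner glycoprotein, had 77.98, 28.07 and 69.41 FPKM in IVM. In IVO it had 27.31, 30.63 and 23.26 FPKM. IVM2 lay among the IVO values, and the log2FC of −0.97 (SE 0.39) had an adjusted p of 0.115. Without IVM2 it was −1.42 (adjusted p = 0.0147).

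None of the 6 tested pentose phosphate genes was called in either direction, where 17.9% of all tested genes were called lower and 0.606% higher. In limma, 1 lower and 0 higher had an unadjusted p under 0.05, beside 31.4% and 5.56%. Tkt, the transketolase of the non-oxidative branch, was the most abundant, with 203.02, 135.91 and 117.60 FPKM in IVM. Its IVO values were 71.10, 96.09 and 86.89 FPKM. The groups did not overlap, and the log2FC was −0.81 (SE 0.25, adjusted p = 0.0547). The adjusted p was 0.0459 when only genes with a mean of at least 5 FPKM were tested, 0.0488 with Ensembl genes alone, and 0.218 after median-ratio scaling, where the log2FC was −0.49. Transaldolase Taldo1, which works beside it, had 66.64, 53.41 and 54.63 FPKM in IVM and 50.83, 53.78 and 69.29 FPKM in IVO, with a log2FC of −0.01 (adjusted p = 0.974).

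G6pdx, the enzyme that opens the oxidative branch and makes NADPH, lay between 34.68 and 46.81 FPKM in IVM and between 38.03 and 53.17 in IVO (log2FC 0.13, adjusted p = 0.717). The lactonase Pgls had a log2FC of −0.81 (SE 0.35, adjusted p = 0.145), with values from 0.26 to 2.54 FPKM. The isomerase Rpia stood at 0.04 (adjusted p = 0.918) and the epimerase Rpe at 0.53 (SE 0.24, adjusted p = 0.156), and Rpe was the one pentose phosphate gene whose IVO values all lay above the IVM values. Pgd, the second NADPH-making enzyme, and H6pd, the counterpart of G6pdx in the endoplasmic reticulum, did not exceed 0.65 and 0.26 FPKM and were not tested. The genes not tested numbered 7 in all (Slc2a8, Hk1, Pfkl, Aldoc, Eno3, H6pd and Pgd), and none exceeded 0.83 FPKM in any library.

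Summed by step, FPKM separated the groups for glucose transport, lactate dehydrogenase, monocarboxylate transport with basigin, and the pentose phosphate pathway, each lower in IVO with an exact permutation p of 0.1. After median-ratio scaling the log2 ratio of the pentose phosphate sums was −0.026 (exact permutation p = 1.0) against −0.35 as deposited, while the other 3 kept a p of 0.1. Monocarboxylate transport summed to 273.3, 253.2 and 259.7 FPKM in IVM and 121.2, 123.0 and 135.5 in IVO. The sum over glycolytic enzymes was 185.2, 119.0 and 178.7 FPKM in IVM and 138.5, 140.5 and 128.4 in IVO, which overlapped (exact permutation p = 0.4). Single genes led the sums: Ldhb made up 99.9% of its step, Slc2a3 96.3%, Slc16a3 75.7%, Gapdh 64.5% and Tkt 48.7%. In proportion to the other genes, Ldhb was 48.8, 62.8 and 36.6 times as abundant as Gapdh in IVM and 12.5, 10.6 and 12.2 times in IVO. Slc16a3 was 120, 179 and 78.3 times as abundant as Slc16a1 in IVM and 48.4, 37.4 and 48.5 times in IVO.

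A list of 50 further genes of these pathways was read from the same fit. Of the 25 tested, 3 were called lower in IVO and 0 higher, beside 17.9% and 0.606% of all tested genes, with 3 lower and 2 higher at limma's unadjusted p under 0.05 (31.4% and 5.56% of all tested genes), and 8 genes of the list were at 0 in every library. The called genes were Pfkfb4, Emb and Txnip. Pfkfb4, another bifunctional enzyme of phosphofructokinase control, had 28.71, 37.96 and 24.58 FPKM in IVM. The IVO samples had 1.70, 9.24 and 6.64 FPKM (log2FC −2.38, SE 0.49, adjusted p = 0.0143), and in IVM it stood far above Pfkfb2 and Pfkfb3. The call was lost without IVM1 (adjusted p = 0.0573) or IVM2 (0.0620). Embigin (Emb), a relative of basigin that partners Slc16a7, had 257.96, 220.78 and 178.25 FPKM in IVM. In IVO it had 99.77, 100.40 and 103.29 FPKM (log2FC −1.09, SE 0.19, adjusted p = 0.00786). Its log2FC fell short of 1 in size after median-ratio scaling (−0.77, adjusted p = 0.0420) and without IVM1 (−0.965). Txnip, which lowers glucose uptake by promoting the internalisation of glucose transporters, had 450.94, 494.24 and 583.89 FPKM in IVM. Its IVO values were 193.66, 211.93 and 218.70 FPKM (log2FC −1.28, SE 0.16, adjusted p = 0.00309), and after median-ratio scaling the log2FC was −0.96 (adjusted p = 0.0152). Txnip and Emb were among 7 of the 25 tested genes whose values lay lower in IVO without overlap. Another 4 lay higher, where the shares of all tested genes were 32.6% and 9.62%. Slc5a1, a sodium-coupled glucose transporter named here after its values were seen, had 36.79 to 51.71 FPKM in IVM, was listed at 0 in IVO1 and had 21.06 and 20.85 FPKM in IVO2 and IVO3 (adjusted p = 0.162).

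Bpgm, the bisphosphoglycerate mutase, was the most abundant of the 50 genes, with 1650.40, 1177.35 and 725.23 FPKM in IVM. The IVO samples had 1751.19, 1959.13 and 1989.25 FPKM. All IVO values lay above the IVM values, with IVM1 close to IVO1, and the log2FC of 0.76 (SE 0.29) had an adjusted p of 0.0999. After median-ratio scaling it was 1.08 (adjusted p = 0.0525) and with the length trend removed 1.06 (0.0576), which both missed the threshold. With the FPKM scaled to the same sum it was 1.10 (adjusted p = 0.0214), and under quantile normalization 1.15 (0.0187). As deposited, it was 1.04 (0.0450) without IVM1 and 0.44 (0.163) without IVM3. In the order of FPKM among Ensembl genes, Bpgm stood below Ldhb in IVM (175, 268 and 395) and above it in IVO (120, 111 and 114).

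**Figure D5:**
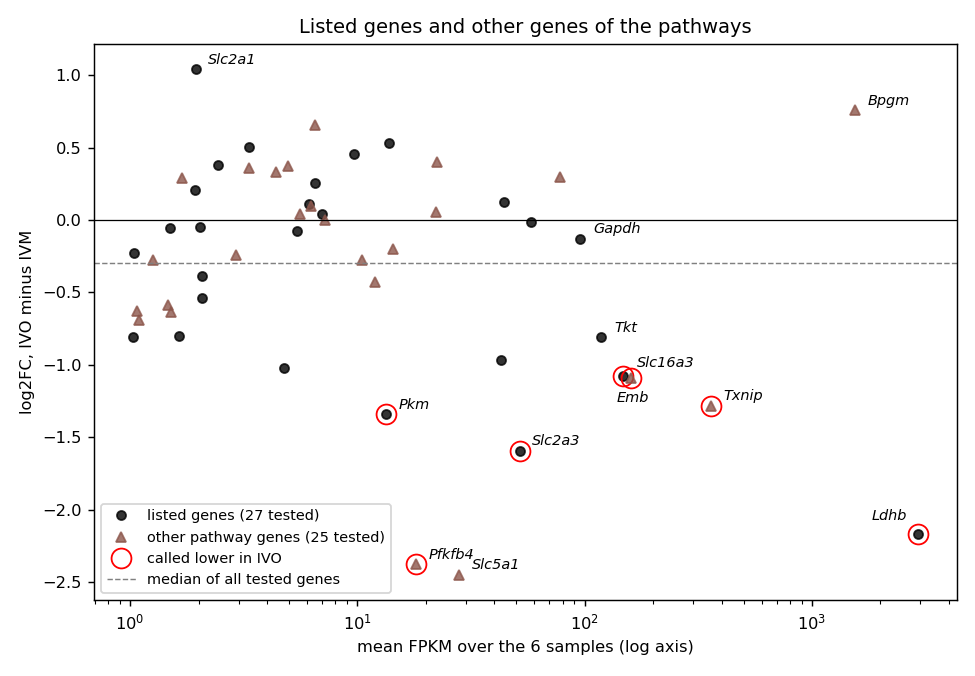
Log2 fold change (IVO minus IVM) against the mean FPKM over the 6 samples (log axis) for the 27 tested genes of the list (dark points) and the 25 tested further pathway genes (triangles), with red rings for genes called lower in IVO. Ldhb lies at the highest abundance and at −2.17, Bpgm at 0.76, and the dashed line marks the median of all tested genes at −0.30.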

How the data were processed

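Per the paper's methods and the submitters' processing notes, the authors made cDNA with SMART-Seq v4 and libraries with Nextera XT, sequenced them in pairs on a NovaSeq, used SeqPrep and Sickle for trimming, HISAT2 2.1.0 for alignment to GRCm39 and RSEM 1.3.3 for quantification. The authors tested counts with DESeq2 1.24.0, but the deposited values used here are FPKM, 1 per gene and sample, so a count test was not run. Depth was fitted with the transcript length less the mean fragment length, a form of FPKM that already allows for the fragment length. Whether fragment length takes part in the lower values of short genes in IVO was not tested. The deposited group means were not used. Depth was worked out from the spacing of low FPKM values (transcripts of 400 to 1500 bases), of which 78.4% to 80.7% fell within 0.15 of a whole number of fragments.

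All 35 entries matched GENCODE M39 (GRCm39), whose transcripts gave the sequences, compared in Python 3.11.15 with Biopython 1.88. Tests used R 4.3.3 and limma 3.58.1 (lmFit, eBayes with trend, group alone, two-sided) on log2(FPKM + 1), over 18818 genes that averaged at least 1 FPKM. P-values were adjusted by Benjamini-Hochberg over these genes, and the call needed a log2FC of at least 1 in size and an adjusted p under 0.05. Shares and sums were compared by two-sided exact permutation tests, which cannot go below 0.1 for 3 against 3. Fits were tested on simulated data. The settings varied were the pseudocount (0.1), the filter (none, or a mean of at least 5 FPKM), median-ratio, same-sum and quantile scaling, lowess removal of the length trend (span 0.3), a replicate block, Ensembl genes only, added copies, and each sample left out. The length trend removed together with median-ratio scaling, and shares with relatives added to a family, were added after seeing the data. Values in every sample are given for called genes, genes with an adjusted p under 0.05, the 2 most abundant of each step, isozymes with a mean of at least 1 FPKM, and, of the further genes, those called and the 3 most abundant. The genes, lists and steps were chosen with earlier results of these data known.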

Additional observations from a re-analysis of the deposited data

How the results depend on the processing

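Ldhb kept its direction and its call under every alternative run. Scaling and length correction moved the counts most. Over all tested genes, the numbers called lower and higher in IVO were 2106 and 393 with median-ratio scaling, 2131 and 397 with the same summed FPKM, 1580 and 1097 with quantile normalization and 1314 and 909 with the length trend removed, beside 3366 and 114 as deposited. With Ensembl genes only, 1972 of 13154 tested genes were called lower and 84 higher. All 27 genes are among these 13154, and 4 of the 27 were called lower. The length trend removed together with median-ratio scaling, chosen after seeing the data, gave 1344 and 941. Of the 27 genes, 2 were called lower with the same sum and 1 with quantile normalization. One was called higher with median-ratio scaling, with the length trend removed and with both, and 2 with quantile normalization. At an adjusted p under 0.05 and any fold, 2 were lower with quantile normalization. The number higher was 2 with median-ratio scaling, 1 with the same sum and 4 with quantile normalization. It was 3 with the length trend removed, alone or with median-ratio scaling. Over all tested genes, 7.19% passed higher with median-ratio scaling and 10.9% with the length trend removed. That share was not computed with the same sum, quantile normalization or both corrections together, so those counts have no background here. Of the further pathway genes, 1 was called lower under each of these 5 settings, and 1 with the same sum and 2 with quantile normalization were called higher. The median log2FC of the 27 genes turned from −0.08 to 0.17, 0.18, 0.39 and 0.23 under median-ratio, same-sum and quantile scaling and length correction and to 0.19 under the combined one.

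Some genes changed sign, most of them near 0 as deposited, with Pfkp at −0.23 and Eno1 at −0.39 farther from it. In the order median-ratio, same sum, quantile, length trend removed and combined, the log2FC was 0.14, 0.14, 0.39, 0.27 and 0.19 for Tpi1, 0.19, 0.21, 0.39, 0.22 and 0.27 for Gapdh, 0.20, 0.20, 0.40, 0.23 and 0.23 for Pgam1, 0.17, 0.18, 0.39, 0.26 and 0.19 for Pfkfb3 and 0.31, 0.32, 0.49, 0.33 and 0.37 for Taldo1. Pfkp was at 0.27 with quantile normalization and 0.061 with the length trend removed, and Eno1 at 0.037 with quantile normalization. With median-ratio scaling the log2 ratio of the glycolytic enzyme sum was 0.09 and that of the pentose phosphate sum −0.026. With genes of the same KEGG ortholog added, the share difference, IVO minus IVM, was −11.4 percentage points for Aldoa and −7.27 for Eno1, and with relatives from the list of further genes added, chosen after seeing the data, it was 0.527 for Eno1. The causes were not tested.

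With each sample left out in turn, 2276 to 3174 genes were called lower and 82 to 130 higher. Of the 27 genes, 2 to 5 were called lower and 0 to 1 higher, and 2 to 6 and 0 to 1 had an adjusted p under 0.05. The lowest lower counts came without IVM1 and without IVM3. For these fits the share of all tested genes at an adjusted p under 0.05 and any fold was not computed. Of the further genes, 1 to 3 were called lower and 0 to 1 higher. The log2FC ranged from −0.29 to 0.37 for Hk2, −0.47 to 0.10 for Pfkp, −0.21 to 0.081 for Tpi1, −0.35 to 0.11 for Pgam1, −0.25 to 0.12 for Pfkfb3, −1.11 to 0.38 for Ldha, −0.008 to 0.26 for G6pdx, −0.10 to 0.12 for Rpia and −0.15 to 0.087 for Taldo1. The share difference ranged from −1.06 to 2.69 percentage points for Pfkl, −0.977 to 2.23 for Aldoa and −0.00709 to 0.0817 for Ldha.

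Same-numbered IVM and IVO samples did not deviate together (correlations −0.0618, −0.0176 and −0.107), and pairs with unlike numbers gave −0.0227 to 0.0809. The labels give only the number. Correlations this small cannot show whether same-numbered samples shared a collection day or a library batch. With the replicate number as a block, 2899 genes were called lower and 92 higher over the table, and 4 of the 27 genes were called lower. With the block and the length trend removed together, these counts were 627, 350 and 1, with 1 gene of the 27 at an adjusted p under 0.05 in the lower direction, 0 further pathway genes called lower by limma and a median log2FC of 0.23. The signs of Pfkp (0.061), Tpi1 (0.27), Gapdh (0.22), Pgam1 (0.23), Pfkfb3 (0.26) and Taldo1 (0.33) were those without the block. With 3 samples a group, genes of a few FPKM have wide intervals, and 17 of the 27 had a mean under 10 FPKM.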
